A study of Mus musculus with 112 samples.

Results

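Hearts of calorie restricted (CR) DBA/2J mice were compared with hearts of control DBA/2J mice, for every gene that an Affymetrix Mouse Gene 1.0 ST array measured with a probe set of a single gene symbol. The members were chosen by array title: 7 CR arrays and 8 control arrays of this strain, 15 of the 112 heart arrays of the study. All mice were males of 22 weeks of age, fasted overnight before the heart was taken, and each array held the RNA of 1 mouse. The diets started at 8 weeks of age, so CR had lasted 14 weeks. Before the diets started, all mice received 84 kcal per week. Both groups carried the same inbred genotype and no transgene or drug, and the control mice also received a measured ration, so the groups differ in the amount of food and not in free access to it. The other 96 arrays came from 6 strains (129S1/SvImJ, B6C3F1/J, BALB/cJ, C3H/HeJ, C57BL/6J and CBA/J) under CR or control diets, with rations that differed from those of DBA/2J in 129S1/SvImJ, C57BL/6J and BALB/cJ. The p-values measure the spread between mice of 1 study.

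The heart burns fatty acids, glucose and lactate, and its fuel genes follow the supply of food. Iron enters cardiac muscle cells through the transferrin receptor, leaves through ferroportin, and is used for haem and for the iron-sulphur proteins of the respiratory chain. DBA/2J is an inbred strain known for mineral deposits in the heart (dystrophic cardiac calcification).

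Signals are on a log2 scale, so a difference of 1 is a doubling, and differences are CR minus control. The array of an eighth CR mouse (replicate 7) was left out (the study removed 1 heart array without naming it): its signals had an SD of 0.715, against 1.93 to 2.07 in the other DBA/2J arrays, and a correlation of 0.26 with its group. Among the arrays used, 4 stood apart. The mean of 10 atrial muscle markers was 9.10 in CR replicate 3, 9.72 in CR replicate 6, 10.54 in control replicate 3 and 9.88 in control replicate 5, and lay between 6.80 and 7.22 in the other 11 arrays. Of these 10 markers 9 were higher in all 4 arrays than in any of the 11, as were 8 of 10 fibroblast markers and 5 of 12 markers of white adipocytes. The markers listed for ventricular muscle were high in every array (means of 12.58 to 12.90 in CR hearts and 12.21 to 12.79 in control hearts). Control replicate 5 also held 387 genes that were more than 1 above every other array, led by thymocyte genes such as Themis (9.99, against at most 4.26 elsewhere) and Rag1 (9.44, against at most 4.40). CR replicate 6 held 61 such genes, led by Car1 (9.30, against at most 5.50 elsewhere), Serpinb10 and Alox15. They include genes of other tissues, such as Zg16 (7.28, against at most 4.12) and the lymphocyte marker Ms4a1 (7.59, against at most 5.42). This array also had the highest mean of the macrophage markers (8.31). Results are given for the 15 arrays and, where they differ, without the 4. The labels say heart and do not say which parts of it were taken. In RNA of such tissue, fewer cells of a type and less RNA per cell cannot be told apart.

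**Figure D1:**
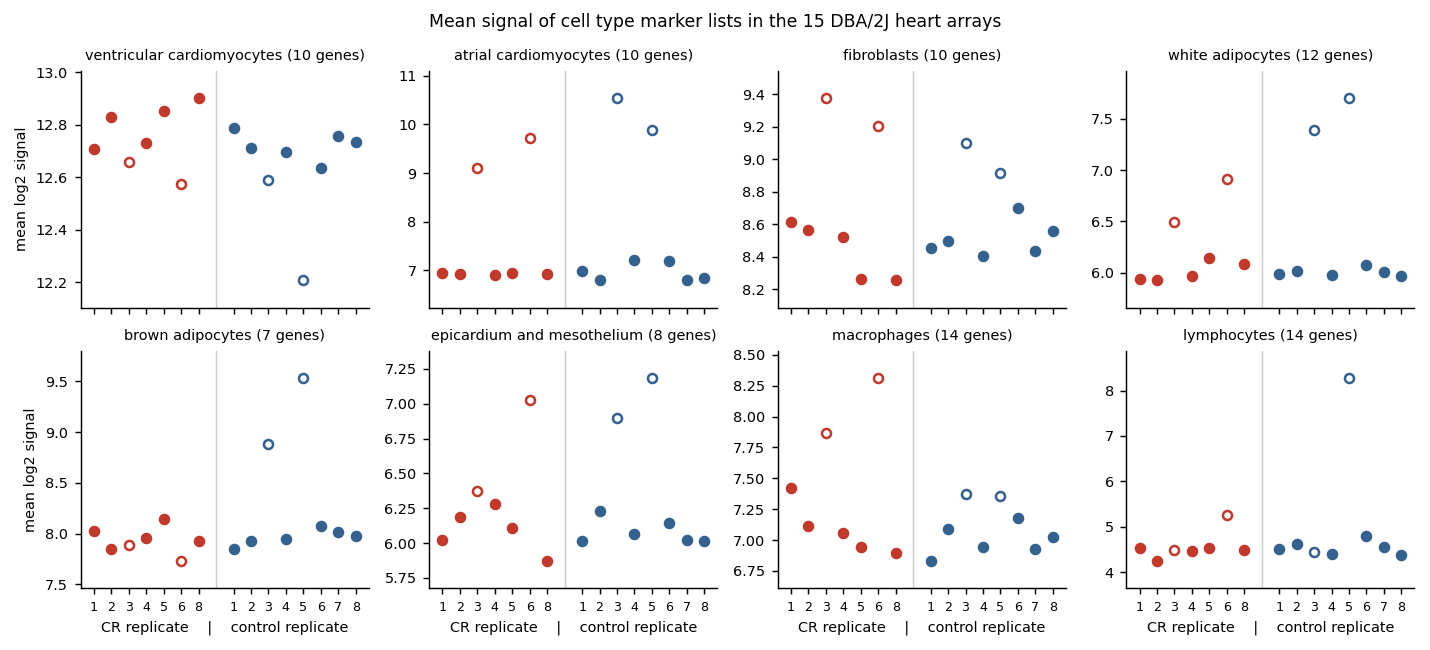
Mean log2 signal of 8 lists of cell type markers (vertical axes) in each of the 15 DBA/2J heart arrays (horizontal axes, by replicate), with CR in red at the left and control in blue at the right. Open circles are the 4 arrays high in atrial markers; control replicate 5 is the only array with a lymphocyte mean of 8.27, where the others lie between 4.25 and 5.25.

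Over 19938 genes the effect of CR in DBA/2J hearts was narrow. After Benjamini-Hochberg adjustment 2 genes were higher and 0 were lower (limma, 0.01% of genes), the alpha-tubulin Tuba4a and the transferrin receptor Tfrc. At an unadjusted p under 0.01, the level the study used for its strain lists, 251 genes differed (1.26%), 130 of them higher (0.652%) and 121 lower (0.607%). Without any effect about 1% of genes would be expected at that level, so this count lies close to it. The median difference over all genes was 0.004, and 52% of genes were above 0. The split of the adjusted calls moved with the scaling: another quantile normalization gave 5 higher and 7 lower, and centring the arrays on their medians gave 2 higher and 1 lower. Without the 4 arrays high in atrial markers, 45 genes passed (0.226%), 19 higher and 26 lower, and 664 were under an unadjusted p of 0.01 (3.33%). Without control replicate 5 alone 13 passed, without CR replicate 6 alone 6 passed, and none passed without CR replicate 1, 2, 4, 5 or 8 or control replicate 6.

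A pair of alpha-tubulin genes, Tuba4a and Tuba8, had CR hearts that were all above the control hearts. Alpha-tubulins pair with beta-tubulins to build microtubules. Tuba4a, on chromosome 1, lay between 10.50 and 11.13 in the 7 CR hearts (median 10.95), against 9.60 to 10.26 in the 8 control hearts (median 10.19). The lowest CR heart was above the highest control heart. The difference was 0.85 ± 0.11 (SE), a fold of 1.80 with a 95% interval of 0.61 to 1.09 on the log2 scale, and passed the test (limma, adjusted p = 0.0158). The call held in 9 of the 15 fits that each left out 1 array and was lost without CR replicate 1, 2, 4, 5 or 8 or control replicate 6, where the adjusted p reached 0.0733. Tuba8, a tubulin found in heart and skeletal muscle, lay between 9.61 and 10.68 in CR hearts (median 10.33), against 8.32 to 9.55 in control hearts (median 9.38). Again no CR heart reached down to a control heart. Its difference of 1.07 ± 0.18 missed the threshold (adjusted p = 0.069), and passed it without the 4 arrays (1.12, adjusted p = 0.000127). Of 12 tubulin genes, 6 were above 0 and 6 below with a median of 0.02. At an unadjusted p under 0.01, 3 were higher, against 0.652% of all genes. They are Tuba4a, Tuba8 and the beta-tubulin Tubb6 (0.28, adjusted p = 0.361). The widely used Tuba1a and Tubb5 differed by 0.04 and -0.01.

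Genes of iron uptake, haem synthesis and iron export were the other group with large differences. Tfrc, the receptor that takes up iron-loaded transferrin, lay between 7.03 and 8.76 in CR hearts (median 8.34), against 6.42 to 7.34 in control hearts (median 6.82). Of the 7 CR hearts 6 were above every control heart, and the exception was replicate 6, one of the 4 arrays that stood apart. The difference was 1.37 ± 0.21, a fold of 2.59, and just passed (adjusted p = 0.0486). It passed in 3 of the 15 fits that left out 1 array, those without CR replicate 6, control replicate 3 or control replicate 5, and the adjusted p reached 0.196 without CR replicate 4. Without the 4 arrays the difference was 1.79 (adjusted p = 1.62e-06).

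Alas1, which makes the first enzyme of haem synthesis, lay between 9.29 and 10.16 in CR hearts (median 9.71), against 8.14 to 9.09 in control hearts (median 8.91). The groups did not overlap. The difference of 0.91 ± 0.16 had an adjusted p of 0.069 in 15 arrays and of 0.00202 in the 11. Slc40a1, which encodes ferroportin, the iron exporter, ran the other way, with 6.28 to 6.92 in CR hearts (median 6.72), against 6.96 to 7.80 in control hearts (median 7.34). Here too every CR heart lay outside the control range, by a small margin. The difference was -0.70 ± 0.13 (adjusted p = 0.0726; -0.82 and 0.0152 without the 4 arrays). Fth1, which encodes the heavy chain of the iron store ferritin, did not overlap by a narrow gap, with 12.76 to 12.86 in CR hearts, against 12.52 to 12.75 in control hearts, a difference of 0.14 (adjusted p = 0.854). The gene of the light chain, Ftl1, differed by 0.03. Of 31 iron and haem genes 17 were above 0 and 14 below, with a median of 0.03. At an unadjusted p under 0.01 Tfrc and Alas1 were higher (0.652% of all genes were) and Slc40a1 was lower (0.607% of all genes were), so the group did not move as a whole.

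**Figure D2:**
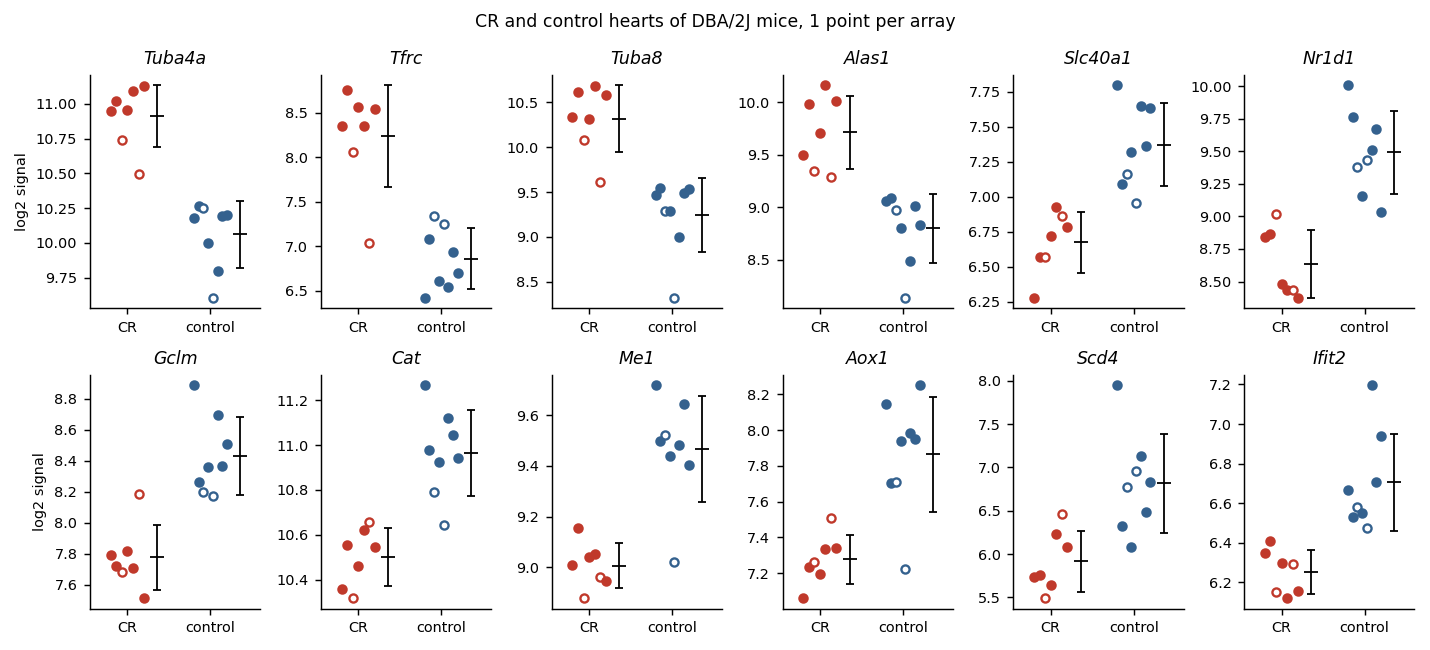
Log2 signals of 12 genes (vertical axes) in DBA/2J hearts, 1 point per array, CR in red at the left and control in blue at the right of each panel; the bar is the mean with its SD (n = 7 CR and 8 control) and open circles are the 4 arrays high in atrial markers. Tuba4a, Tuba8 and Alas1 have every CR point above every control point, and Slc40a1, Nr1d1 and Ifit2 have every CR point below.

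Among the other genes with the smallest p and a higher signal in CR hearts, none passed the adjusted threshold in the 15 arrays. Fbxl22, an F-box protein of the cardiac sarcomere, lay between 6.58 and 7.48 in CR hearts (median 7.32), against 6.25 to 6.80 in control hearts (median 6.59). All CR hearts but replicate 6 were above the controls. Its difference was 0.67 (adjusted p = 0.0726; 0.80 and 0.000172 without the 4 arrays). Pnp, a purine salvage enzyme, differed by 0.46 with no overlap (adjusted p = 0.0726), and Ndrg4, a gene needed for growth of heart muscle cells in zebrafish, by 0.53 with no overlap (adjusted p = 0.21). Prodh, the first enzyme of proline breakdown, differed by 0.60 (adjusted p = 0.357; 0.72 and 0.00388 without the 4 arrays). The list ended with Trnp1 (0.34), 3010003L21Rik (0.34), Cxxc1 (0.25), which writes no mark itself but guides histone methylation to promoters, and the mitochondrial ribosomal gene Mrpl47 (0.45). The probe sets of Mrpl47 disagreed, with 0.45 from the brighter and -0.03 from the dimmer.

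On the lower side the gene with the smallest p was Nr1d1, which encodes REV-ERB alpha, a haem-binding repressor of the circadian clock. It lay between 8.38 and 9.02 in CR hearts (median 8.48), against 9.03 to 10.01 in control hearts (median 9.47). The groups did not overlap, though the highest CR heart was close to the lowest control heart. The difference was -0.86 ± 0.14 (adjusted p = 0.0636; -0.92 and 0.023 without the 4 arrays). Other clock genes did not share one direction: of 20, 13 were above 0 and 7 below with a median of 0.09, and the only other gene at an unadjusted p under 0.01 was Clock (-0.21, adjusted p = 0.642). The outputs Tef (0.29) and Dbp (-0.15), the partner Nr1d2 (0.02) and Arntl (-0.33) had adjusted p-values of 0.846 to 1. The hour at which hearts were taken is not given for single mice.

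Antioxidant and NADPH genes made up the next group. Gclm, the regulatory partner of the first, rate-setting enzyme of glutathione production, lay between 7.51 and 8.19 in CR hearts (median 7.72), against 8.18 to 8.89 in control hearts (median 8.36). Only CR replicate 6 reached the control range. The difference was -0.66 ± 0.11 (adjusted p = 0.069; -0.80 and 0.00303 without the 4 arrays). Cat, which encodes catalase, lay between 10.32 and 10.65 in CR hearts (median 10.54), against 10.64 to 11.27 in control hearts (median 10.96), again with 1 CR heart inside the control range. Its difference was -0.46 (adjusted p = 0.0869; -0.54 and 0.00786 without the 4 arrays). Me1, the malic enzyme that makes NADPH in the cytosol, had the same difference of -0.46, with 8.88 to 9.15 in CR hearts, against 9.02 to 9.72 in control hearts, where the lowest control was replicate 5. Both of its probe sets were lower (-0.46 and -0.39). Aox1, an aldehyde oxidase, differed by -0.59 (adjusted p = 0.204; -0.76 and 0.0016 without the 4 arrays).

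Of a list of 28 targets of NRF2, the main activator of antioxidant genes, these 4 were lower at an unadjusted p under 0.01. Of all genes 0.607% were lower at that level. No member of the list was higher. The list as a whole had 18 members below 0 and 10 above, with a median of -0.10. Its best known members Nqo1 (-0.31), Hmox1 (-0.21), Txnrd1 (-0.14) and Srxn1 (-0.18) had adjusted p-values between 0.916 and 1. Pir, an iron-binding protein whose gene is also induced through NRF2 in human cells, did not overlap between the groups: 6.35 to 6.68 in CR hearts, against 6.71 to 7.35 in control hearts (-0.42, adjusted p = 0.234). The motif through which NRF2 acts, written here as TGACNNNGC and searched on both strands, was found in the promoters of 7 of the 24 list genes that have one in the RefSeq table (29.2%). The share over all 15614 genes with a promoter there, searched over the same length, was 12.5%. Of the 4 lower members Gclm had a match in this window, and Cat, Me1 and Aox1 had none. The window of the Gclm promoter (RefSeq, GRCm38.p6, chr3:122245393-122245461, plus strand) is shown because Gclm had the smallest p of the list; capitals mark the match, which runs on the minus strand.
Gclm: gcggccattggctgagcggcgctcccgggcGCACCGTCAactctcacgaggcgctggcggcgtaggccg

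Genes that interferons switch on lay below 0 in CR hearts more evenly than the genes of any other pathway list lay to one side. Of 33 interferon response genes 32 were below 0, with a median of -0.21 against 0.004 over all genes. At an unadjusted p under 0.01, 7 were lower and 0 higher, against 0.607% of all genes lower. None passed after adjustment. The mean of the list lay between 6.14 and 6.39 in CR hearts (median 6.21), against 6.27 to 6.67 in control hearts (median 6.42). The groups overlapped only through CR replicate 6, with 6.39, and through control replicates 3, 4 and 2.

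Ifit2, an antiviral protein that binds RNA, lay between 6.12 and 6.41 in CR hearts (median 6.29), against 6.48 to 7.20 in control hearts (median 6.62), with no overlap. Its difference was -0.45 (adjusted p = 0.254). Ifit1, its neighbour on chromosome 19, lay between 5.76 and 6.30 in CR hearts (median 6.18), against 6.36 to 7.48 in control hearts (median 6.50), also with no overlap. Its difference was -0.60 (adjusted p = 0.361). The GTPase Iigp1 differed by -0.62 (adjusted p = 0.361; -0.83 and 0.0125 without the 4 arrays), the deconjugase Usp18 by -0.43, Rsad2 (viperin) by -0.50, Ifit3 by -0.38 and Xaf1 by -0.32. The chemokine Cxcl9, which interferon gamma induces, did not overlap either, with 4.90 to 5.47 in CR hearts, against 5.48 to 6.07 in control hearts (-0.42, adjusted p = 0.361). Lymphocyte markers were far higher in control replicate 5 than elsewhere, and without that array 30 of the 33 genes were below 0 (median -0.18), with 7 lower at an unadjusted p under 0.01, against 1.19% of all genes in that fit. Without the 4 arrays 30 were below 0 (median -0.24), and Iigp1 was the 1 gene to pass after adjustment.

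The element bound by interferon-activated factors, taken here as 2 copies of GAAA with 2 bases between them and searched on both strands, was found in the promoters of 9 of the 23 list genes with one in the RefSeq table (39.1%). The share over all 15614 genes with a promoter there was 3.4%. Matches of a motif are letters in a window and not sites shown to be bound. Of the 8 list genes with a promoter and an unadjusted p under 0.05 (limma), 4 had a match. Bst2 (-0.10), Oas1a (-0.19) and Oas3 (-0.05) are among the genes with a match that are not shown. The windows shown are of those 4: Ifit1, Ifit3 and Rsad2, whose signals are described above, and the GTPase Irgm1 (-0.22). The windows have 1 match each in capitals, and those of Ifit1 and Irgm1 hold another match that is not marked. In Irgm1 it overlaps the marked one. They are read 5′ to 3′ on the strand of the gene from build GRCm38.p6: Ifit1 at chr19:34640755-34640824 (plus strand), Ifit3 at chr19:34583377-34583446 (plus), Rsad2 at chr12:26456533-26456602 (minus) and Irgm1 at chr11:48871421-48871480 (minus). The matches of Ifit1, Ifit3 and Rsad2 run against the gene, that of Irgm1 along it.
Ifit1: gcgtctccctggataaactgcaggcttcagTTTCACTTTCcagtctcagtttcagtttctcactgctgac
Ifit3: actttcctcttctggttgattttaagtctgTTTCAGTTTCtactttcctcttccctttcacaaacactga
Rsad2: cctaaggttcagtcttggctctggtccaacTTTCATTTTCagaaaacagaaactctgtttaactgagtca
Irgm1: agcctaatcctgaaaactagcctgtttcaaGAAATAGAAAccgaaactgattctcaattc

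Among fuel genes none passed after adjustment in the 15 arrays. Of 22 targets of PPAR-alpha, the fatty acid sensor of the heart, 19 were below 0, with a median of -0.18. Mlycd (-0.33), which lowers malonyl-CoA, and the thioesterase Acot2 (-0.59) were lower at an unadjusted p under 0.01, against 0.607% of all genes. Acot2 lay between 9.91 and 10.76 in CR hearts (median 10.26), against 10.05 to 11.54 in control hearts (median 10.96), so the groups overlapped widely (adjusted p = 0.728; -0.77 and 0.049 without the 4 arrays). Pdk4, which shuts off pyruvate oxidation, differed by -0.31 (adjusted p = 1), and Ppara itself by 0.41 (adjusted p = 0.762). The beta-oxidation enzymes as a list had a median of 0.02 over 20 genes, with 0 at an unadjusted p under 0.01 in either direction. Their mean was lowest in control replicate 5 (9.95, against medians of 10.50 in control and 10.48 in CR hearts).

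Glucose genes leaned the other way. Of 23 genes of glycolysis and glucose uptake 20 were above 0 (median 0.14). Pgam1 (0.33) and the lactate carrier Slc16a1 (0.33) were higher at an unadjusted p under 0.01, against 0.652% of all genes. The list mean was lowest in control replicate 5 (9.01, against medians of 9.41 in control and 9.57 in CR hearts). The insulin-responsive glucose transporter Slc2a4 lay between 9.27 and 10.19 in CR hearts (median 9.80), against 8.18 to 9.87 in control hearts (median 9.36), with a difference of 0.53 (adjusted p = 0.854). The lowest control value was 8.18 and 3 CR hearts were above all controls. Respiratory chain genes (61 of 72 above 0, median 0.07), citric acid cycle genes (22 of 26, 0.07), sarcomere genes (21 of 25, 0.09) and ribosomal protein genes (45 of 52, 0.06) showed smaller shifts with 0 members at an unadjusted p under 0.01. Control replicate 5 had the lowest list mean for the respiratory chain (10.32, control median 10.85), the citric acid cycle (9.82, control median 10.30) and the sarcomere (10.705, control median 10.83). For ribosomal proteins it had the highest (9.76, control median 9.38). Ventricular markers leaned the same way, with 10 of 10 above 0 (median 0.10; 7 of 10 and 0.05 without control replicate 5).

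Of lipid synthesis genes the heart-specific desaturase Scd4 had the largest difference, with 5.49 to 6.46 in CR hearts (median 5.76), against 6.08 to 7.95 in control hearts (median 6.81). Only 2 of the 7 CR hearts reached the control range. The difference was -0.90 ± 0.22 (adjusted p = 0.361). Retsat, which saturates retinol, differed by -0.47 (adjusted p = 0.361; -0.54 and 0.0238 without the 4 arrays) and the acetylcholine receptor subunit Chrna2 by -0.41 (adjusted p = 0.839). The study picked Scd4, Retsat, Chrna2, Tfrc, Tuba8, Alas1 and Aox1 as CR markers from strain lists that included these arrays, so their direction is no independent evidence. Genes shared with fat cells need the marker values beside them. The white adipocyte marker mean was 5.93 to 6.91 in CR hearts and 5.97 to 7.70 in control hearts, and in both groups its highest values came from the arrays high in atrial markers. Cidea, a lipid droplet protein of brown fat that is on the PPAR-alpha list, differed by -0.60 in all 15 arrays and by -0.22 in the 11, and Scd1 by 0.18 in the 15 and 0.71 in the 11 (adjusted p = 0.0168). The part of fat cells in these values was not tested.

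Of 21 targets of the glucocorticoid receptor 18 were above 0, with a median of 0.22. At an unadjusted p under 0.01, 3 were higher, against 0.652% of all genes. They were the metallothionein Mt1 (0.47), Hif3a (0.36) and Tsc22d3 (0.47), which encodes the anti-inflammatory protein GILZ. Tsc22d3 lay between 8.24 and 8.63 in CR hearts (median 8.35), against 7.36 to 8.43 in control hearts (median 8.02). The control hearts spread more widely than the CR hearts, and 3 CR hearts were above all controls (adjusted p = 0.642). Zbtb16, a transcription factor strongly induced by glucocorticoids, had 8.47 to 9.95 in CR hearts, against 6.61 to 9.63 in control hearts, and a difference of 0.93 (adjusted p = 0.854). None of the list passed after adjustment. The list mean was 7.75 to 8.11 in CR hearts and 7.36 to 7.98 in control hearts, so the groups overlapped, and was lowest in control replicate 5.

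Cell cycle genes had the lowest median of any pathway list, -0.30, with 36 of 38 below 0, but 0 were lower at an unadjusted p under 0.01. This median rested on control replicate 5, whose list mean was 7.31, against 5.30 to 5.42 in the CR hearts and 5.37 to 5.61 in the other 7 control hearts. Without it the median was -0.09 and 7 of the 38 genes were lower at an unadjusted p under 0.01, as were 1.19% of all genes in that fit. Ccna2, the cyclin of S phase, did not overlap even so: 4.70 to 5.11 in CR hearts, against 5.16 to 5.78 in the control hearts other than replicate 5, which had 8.96. Its difference was -1.04 in the 15 arrays (adjusted p = 0.854) and -0.71 without the 4 (adjusted p = 0.0016). Mki67, the proliferation marker, differed by -0.54 without the 4 (adjusted p = 0.0335). Both are dim in these hearts.

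**Figure D3:**
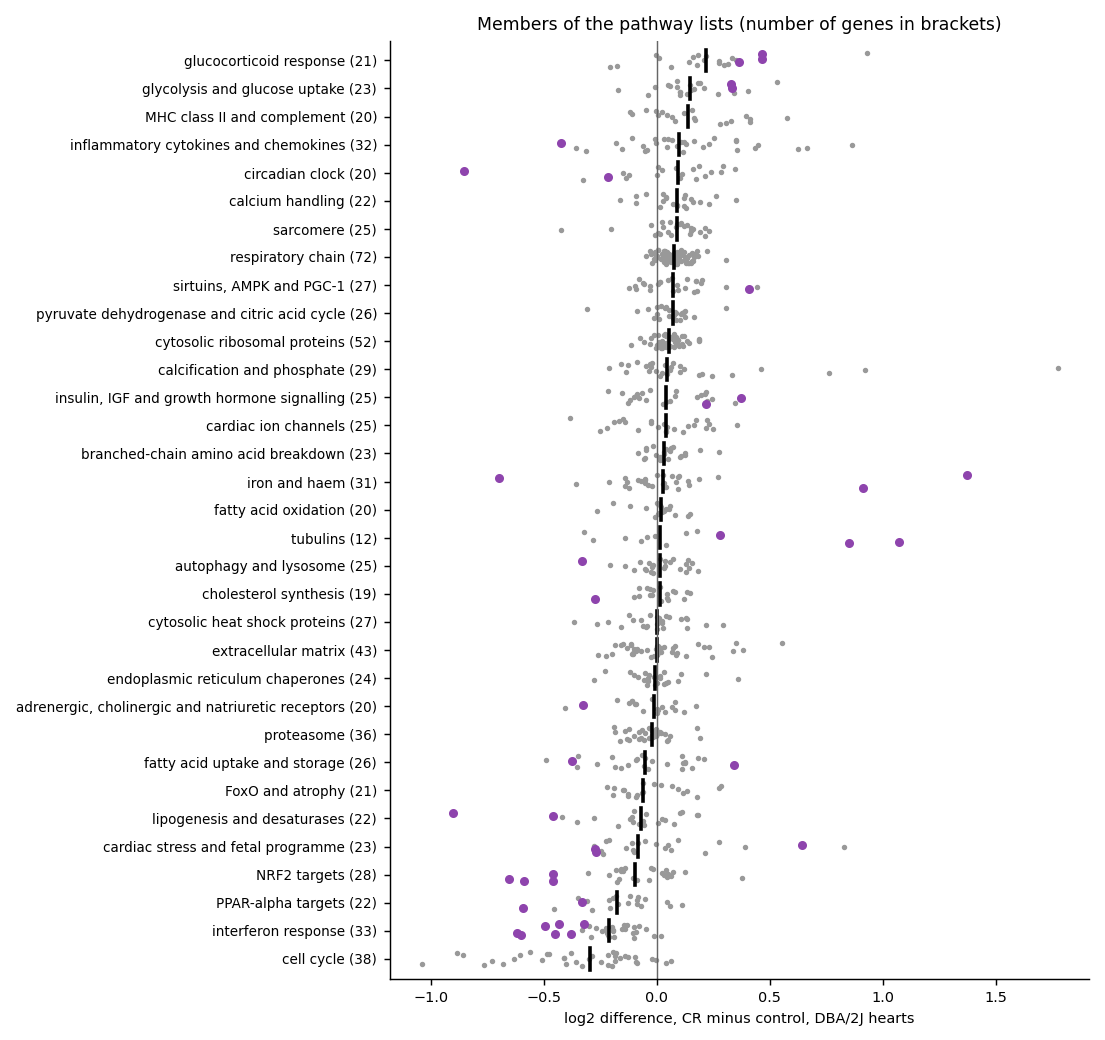
Log2 difference of CR minus control in DBA/2J hearts (horizontal axis) for each gene of 33 pathway lists (rows, ordered by median), with the median as a black bar; purple points are genes at an unadjusted p under 0.01. The interferon and PPAR-alpha lists lie mostly left of 0 (medians -0.21 and -0.18) and the glucocorticoid list right of 0 (median 0.22), while single iron and tubulin genes stand far from lists whose medians are near 0.

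Irrespective of any list, 27 of the 19938 genes (0.135%) had CR and control hearts that did not overlap, 15 with CR above and 12 with CR below. Besides those above they included, chosen here after their values were seen, 2 subunits of the proton pump of lysosomes (Atp6v1b2, 0.27, and Atp6v0d1, 0.20), the lysosomal enzyme Naglu (0.30) and the kinase Jak1 (-0.21), which relays interferon signals. The endothelial adhesion molecule Pecam1 lay between 8.42 and 8.76 in CR hearts, against 8.77 to 9.05 in control hearts (-0.24, adjusted p = 0.524). Endothelial markers as a list had a median of -0.05, with 8 of 13 below 0.

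The remaining genes in the lower set of smallest p were Tnfsf10 (-0.52, adjusted p = 0.0726), the death ligand TRAIL and itself inducible by interferon, Fam13a (-0.52), Ica1 (-0.42) and the ribosome assembly factor Wdr75 (-0.26). For Tnfsf10 6 of 7 CR hearts lay below all controls. Of all 24 genes in both sets, leaving out the 4 arrays turned no direction, and 13 of them passed after adjustment in the 11 arrays, against 0.226% of all genes. The 24 were picked for their p in arrays that include these 11, so neither count is independent evidence.

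**Figure D4:**
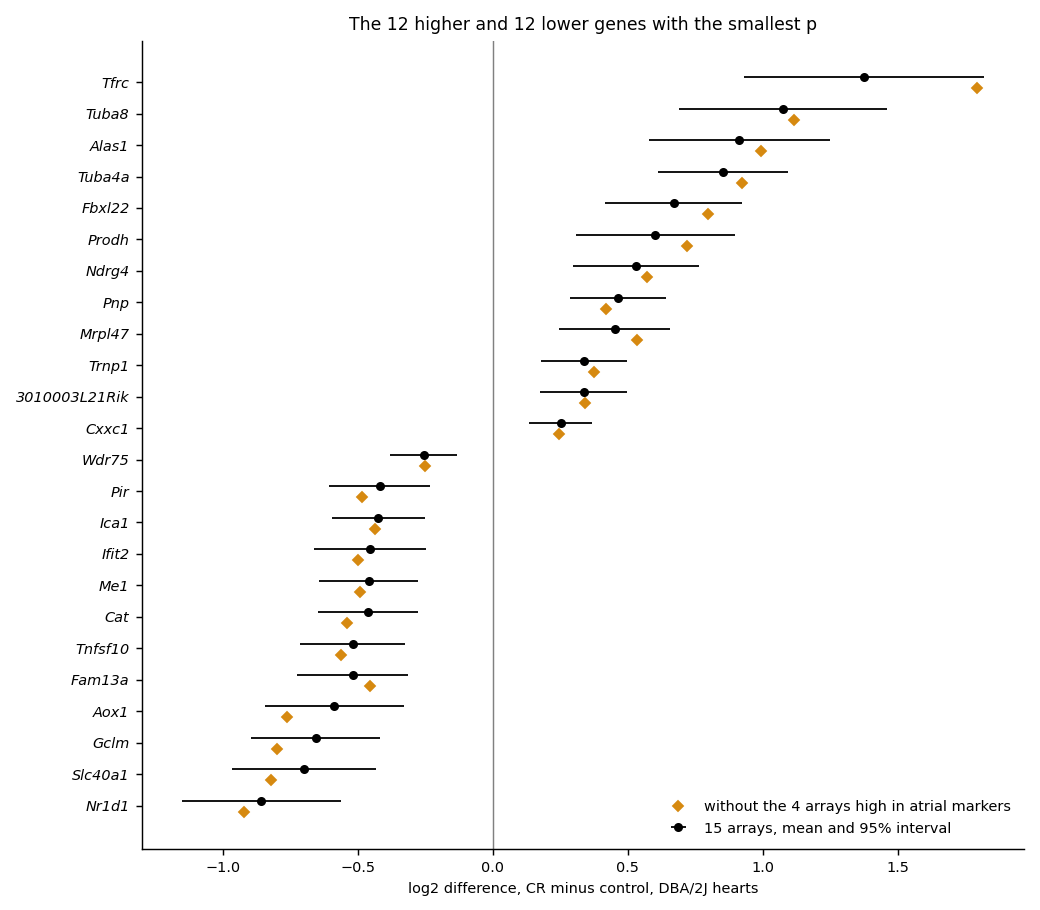
Difference of CR minus control on the log2 scale (horizontal axis) for the 12 higher and 12 lower genes with the smallest p in DBA/2J hearts (rows); black points are 15 arrays with 95% intervals, orange diamonds the fit without the 4 arrays high in atrial markers. The diamonds lie farther from 0 than the points for most genes, and that of Tfrc is at 1.79 and its point at 1.37. The diamonds rest on a part of the arrays in which the genes were picked, so they are no independent evidence.

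The effect of CR in DBA/2J hearts was then set against the other strains. Of the 24 genes with the smallest p, 14 differed in the same direction in all 6 of the other strains, among them Tuba4a, Tfrc, Tuba8, Alas1, Fbxl22, Nr1d1, Gclm, Slc40a1, Cat and Aox1. Pnp, Trnp1, Cxxc1, Tnfsf10, Fam13a, Ifit2 and Wdr75 did so in 5 of 6, Me1 and Ica1 in 4 and 3010003L21Rik in 2. For none of the 24 did a difference in size pass the test. The difference of the DBA/2J effect from the mean of the other 6 was -0.25 for Tuba4a (95% interval -0.64 to 0.13), -0.28 for Tfrc (-0.96 to 0.39) and -0.04 for Gclm (-0.31 to 0.23), each with an adjusted p of 1. The interval of Tfrc is wide, so a smaller effect in DBA/2J remains possible. Pnp was 0.46 in DBA/2J hearts and 0.02 on average elsewhere, a difference of 0.45 (adjusted p = 1). The interferon list, with a median of -0.21 in DBA/2J, had -0.36 in C57BL/6J, -0.05 to -0.15 in 129S1/SvImJ, C3H/HeJ, BALB/cJ and B6C3F1/J, and 0.15 in CBA/J. The glucocorticoid list had 0.22 in DBA/2J, 0.23 in C57BL/6J, 0.14 in CBA/J and 0.01 in BALB/cJ, and was below 0 in 129S1/SvImJ, B6C3F1/J and C3H/HeJ. These list medians are descriptions of 1 set of arrays per strain.

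Only 4 of 19938 genes (0.0201%) had a CR effect in DBA/2J hearts that differed from the mean of the other 6 strains after adjustment, all more positive: Atp6v0d2, Mmp12, Itgax and Rgs1. Atp6v0d2 is a subunit of the proton pump in osteoclasts and some macrophages, Mmp12 is the macrophage elastase, Itgax encodes the integrin CD11c and Rgs1 a regulator of chemokine signals in immune cells. Within DBA/2J alone none of the 4 passed (adjusted p of 0.854 to 0.894), and the hearts of each group differed widely among themselves.

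Atp6v0d2 measured 6.81, 6.06, 8.54, 6.23, 3.76, 8.44 and 3.69 in CR replicates 1 to 6 and 8, against 3.33, 4.17, 3.30, 3.51, 6.19, 6.48, 3.58 and 3.10 in control replicates 1 to 8. High and low hearts occurred under both diets, 5 of 7 under CR and 2 of 8 under the control diet being above the 4.43 that was the highest of all 96 hearts of other strains. The CR effect was 2.01 in DBA/2J and 0.03 on average elsewhere, a difference of 1.98 ± 0.37 (limma, adjusted p = 0.00934). This fit took 1 spread per gene for all 14 groups, and Atp6v0d2 spread far more widely in DBA/2J hearts than elsewhere. The SE and p therefore understate the uncertainty of the DBA/2J effect. Mmp12 split the same hearts, with 5.63 to 10.60 in CR hearts (median 7.67), against 4.99 to 8.44 in control hearts (median 5.60), and 5 CR and 2 control hearts above the highest other heart (6.28). Its difference between strains was 1.93 (adjusted p = 0.0107). Itgax differed by 0.94 and Rgs1 by 1.17 (adjusted p = 0.0249 for both), with 4 and 3 CR hearts and 2 control hearts each above all other strains. All of these genes but Mmp12 were dim in every heart of the other strains, with at most 4.43, 5.02 and 4.39 for Atp6v0d2, Itgax and Rgs1. The median signals of the DBA/2J arrays used were 5.75 to 5.85. Differences of dim genes are compressed, so a small CR effect elsewhere could be missed for these genes.

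The highest values came from CR replicate 3 and from CR replicate 6, which also held genes of other tissues. Both arrays were high in atrial and fibroblast markers. Without the 4 arrays of that kind 0 genes passed and the difference for Atp6v0d2 was 1.25 (adjusted p = 1). Among the 11 arrays left, CR replicates 1, 2 and 4 were still at 6.06 to 6.81 and control replicate 6 at 6.48. Each of 5 arrays alone ended every call: without CR replicate 3, CR replicate 6, or control replicate 1, 3 or 8 no gene passed, and the adjusted p of Atp6v0d2 reached 0.371. All 14 macrophage markers were also above 0 in CR hearts, with a median of 0.28 (0.06 without the 4 arrays). Their mean was 6.89 to 8.31 in CR hearts and 6.83 to 7.37 in control hearts. By array this mean and Atp6v0d2 did not always go together. Control replicate 3 had the highest control mean (7.37) with Atp6v0d2 at 3.30, and CR replicate 4 had a mean of 7.06 with Atp6v0d2 at 6.23. The pan-macrophage marker Cd68 was 9.55 and 9.57 in CR replicates 3 and 6 and 7.19 to 8.29 in the other 13. The part of macrophage content in the strain difference was not tested. Other genes of such cells, named here after their values were seen, gave mixed values. Gpnmb differed between strains by 1.03 (adjusted p = 0.0961). Trem2 had 3 CR hearts above all hearts of other strains, Ctsk 3 CR hearts and 1 control heart, and Gpnmb and Lgals3 2 CR hearts each. The osteoclast phosphatase gene Acp5 had 0 hearts of either diet above them. The list of calcification and phosphate genes, which holds Mmp12 and Gpnmb, had a median of 0.04 over 29 genes.

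Against only C3H/HeJ, CBA/J and B6C3F1/J, the 3 strains that received the same rations as DBA/2J, 1 gene passed (0.00502%), again Atp6v0d2, with a difference of 2.06 ± 0.39 (adjusted p = 0.0165). This SE comes from the same shared spread and has the same limit. Mmp12 differed by 1.82 (adjusted p = 0.0818), and Abhd1 by 0.86 (adjusted p = 0.0818), where the 3 strains were lower by 0.82 under CR and DBA/2J was at 0.04. Tsc22d3 differed by 0.52 (adjusted p = 0.369). On the negative side no gene passed in either contrast; Mr1, Cip2a and Rad18 had control replicate 5 far from the other control hearts, and Trmt10a, a transfer RNA methyltransferase whose groups did not overlap within DBA/2J (-0.28), differed from the 6 strains by -0.28 (adjusted p = 0.781).

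**Figure D5:**
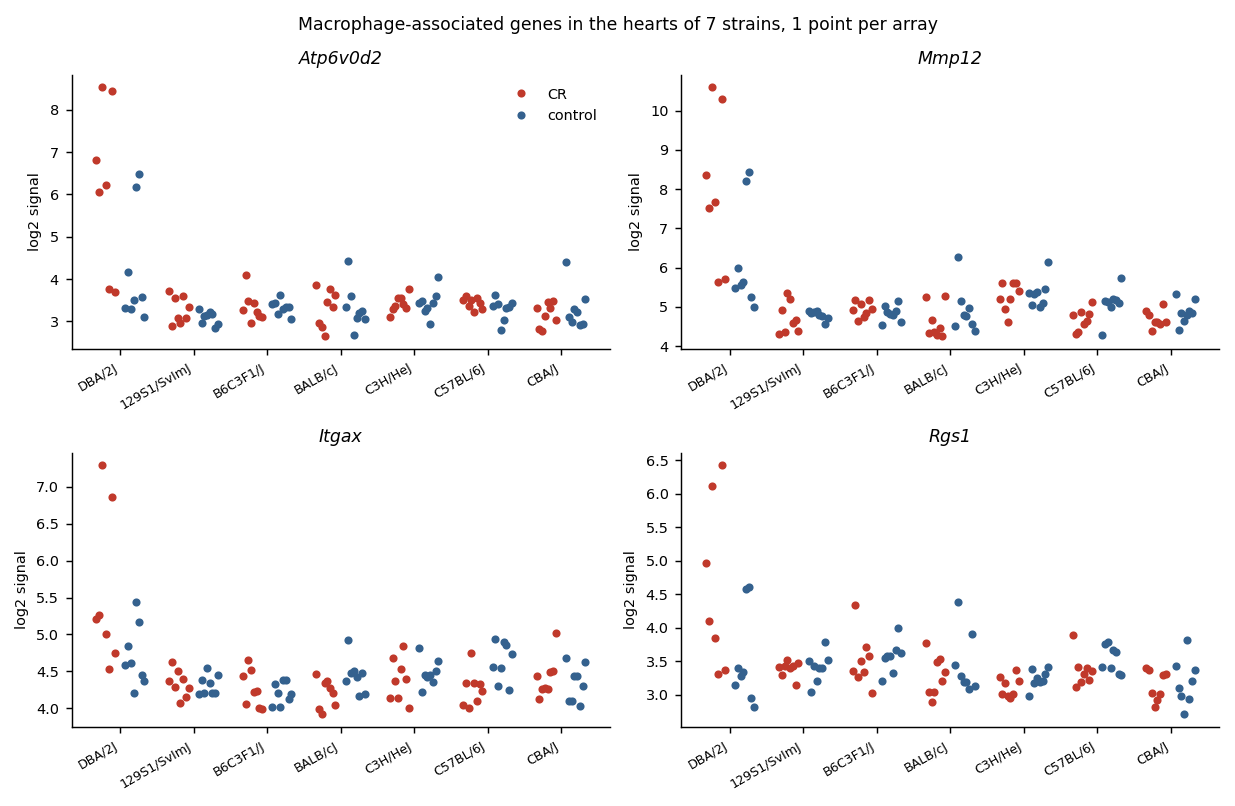
Log2 signals (vertical axes) of Atp6v0d2, Mmp12, Itgax and Rgs1 in the hearts of 7 strains (horizontal axes, DBA/2J at the left), 1 point per array, CR in red left of control in blue. For Atp6v0d2, 5 of 7 CR and 2 of 8 control DBA/2J hearts exceed 4.43, the highest value in the other 96.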

How the data were processed

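RNA of heart tissue was hybridised by the authors to Affymetrix Mouse Gene 1.0 ST arrays, 1 mouse per array. The deposited values are gene-level log2 signals made by the authors with RMA in Affymetrix Expression Console (versions not given in the sources used here), so background, quantile normalization and probe summary were done over the arrays before deposit, which shrinks differences of dim genes. Of 35556 probe sets, 21789 had 1 gene symbol, 1621 had several and 12146 had none. The brightest probe set over all arrays was kept for each of 19938 genes. CR was compared with control using limma 3.58.1 in R 4.3.3 on the 15 arrays, 2-sided, with Benjamini-Hochberg adjustment at 0.05. The comparison with other strains was a contrast in 1 limma fit of 14 groups and 111 arrays, which took 1 spread per gene for all groups. The number of arrays limits the precision.

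Named genes were the 12 higher and 12 lower with the smallest p, the study's heart markers, and for each strain contrast the 6 with the smallest p in each direction, and up to 4 members of each list with the smallest p; genes named beyond this were chosen after their values were seen. The members and lists (33 pathway lists, 19 marker lists) were chosen with earlier results of these data known. The test was tested on simulated data. Motifs were searched in the 250 bases before the start, with 0 bases after it (RefSeq, GRCm38.p6). Alternatives changed the normalization, probe set choice, filter, test, covariates and arrays.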

Additional observations from a re-analysis of the deposited data

Results flagged for a closer look

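Among 126 groups of DBA/2J hearts (44 genes and 19 marker lists, each in both diets), 17 had 1 array far from the rest by Dixon's test at its 95% level, where chance gives about 1 in 20. Of these 11 came from control replicate 5, 4 from CR replicate 6 and 1 each from control replicates 3 and 4. Among the leading genes, CR replicate 6 was low for Tfrc (7.03) and Fbxl22 (6.58), control replicate 5 was low for Tuba8 (8.32) and Me1 (9.02), and control replicate 4 was low for Tnfsf10 (6.40). Control replicate 5 was also apart for Rad18 (7.12), Tia1 (8.02), Mr1 (9.89) and Cip2a (6.57). Among marker means, CR replicate 6 was apart for epicardium (7.03) and lymphocytes (5.25). Control replicate 5 was apart for lymphocytes (8.27), ventricular muscle (12.21), endothelium (8.23), skeletal muscle (5.85) and the thymus and thyroid list (5.05), and control replicate 3 for the conduction system (5.83).

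The CR effect in DBA/2J hearts differed from that in other strains for 4 genes by the test of the difference itself (limma, contrast). This test took 1 spread per gene for all 14 groups, although some DBA/2J hearts lay far above all other strains. Against the other 6 strains the differences were 1.98 for Atp6v0d2, 1.93 for Mmp12, 1.17 for Rgs1 and 0.94 for Itgax, and against the 3 strains fed alike 2.06 for Atp6v0d2. No call was left without the 4 arrays high in atrial markers.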

How the results depend on the processing

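In the 15 arrays 2 genes passed after adjustment, and 130 were higher and 121 lower at an unadjusted p under 0.01. Leaving out 1 array gave 0 to 13, 94 to 222 and 83 to 238. With CR replicate 7 included, 0 passed, 15 were higher and 32 lower, Tuba4a was at 0.29 (adjusted p = 0.798), and Cxxc1 turned to -0.0477. Adjusted calls were 12 after another quantile normalization, 3 after centring, 14 without dim genes, 9 with trend and robust fitting, 14 with all 14 groups in 1 fit and 0 with the methods' test (2-sided, equal variances, run here on the log2 signals, 146 and 133 at an unadjusted p under 0.01). Array weights gave 39 calls, with 321 higher and 348 lower. The marker means as covariates gave 14 (294 higher, 203 lower) for atrial, 28 (241 higher, 275 lower) for white adipocyte and 15 (164 higher, 256 lower) for lymphocyte markers.

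The replicate numbers were not treated as pairs: same-numbered hearts correlated at -0.38 to 0.44, and 2 of 7 CR hearts correlated best with their own number. The labels do not say whether a number marks a shared batch, and these correlations cannot settle it. With the replicate block 0 genes passed (86 higher, 74 lower), Tuba4a had an adjusted p of 0.0912 and Tfrc of 0.0955, and the strain contrasts kept 4 and 1 calls.

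Chosen after seeing the data, leaving out the 4 arrays high in atrial markers gave 45 calls (354 higher, 310 lower), leaving out CR replicate 6 and control replicate 5 gave 17 (226 and 231), and macrophage markers as a covariate gave 33 (534 and 285).

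Against the other strains 4 genes passed, against 7 with CR replicate 7 included, 0 without dim genes, 0 without the 4 arrays and 0 to 9 when 1 array was left out. Against the 3 strains fed alike 1 passed, against 0 with CR replicate 7, 0 without dim genes, 112 with array weights, 0 without the 4 arrays and 0 to 5 when 1 array was left out. The filter on mean signal takes out genes that are dim in most hearts, so the counts without dim genes do not test such genes. Causes were not tested. Low signals near the background compress differences of dim genes.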
